A study of Drosophila melanogaster with 78 samples.

Results

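Whole Drosophila melanogaster embryos labelled slit.robo were compared with embryos labelled slit, both at stage 15, on 9 of the 78 Affymetrix arrays of a study of axon guidance mutants and transgenic lines. The 5 slit.robo arrays and the 4 slit arrays were taken by their titles, and the other arrays fall into 16 further groups, among them 5 WT arrays and 4 robo arrays that stand beside the comparison as reference levels. The labels give neither the alleles, nor how mutant embryos were picked, nor what the joint name slit.robo stands for (a double mutant or another combination), so the groups are called by their labels here. Titles call the replicates biological, the descriptions call them technical, and the design text counts 17 conditions with 3 or 4 replicates where 18 groups are present, so p-values measure the spread between these arrays, which may be technical.

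Slit is a secreted protein made by midline glia of the ventral nerve cord, and Robo receptors on growth cones read it as a repellent that keeps axons from crossing or lingering at the midline. Commissureless lowers Robo at the axon surface, and the Abl kinase and its substrate Enabled act below Robo on actin. At the stage sampled, most of the nerve cord's axon scaffold has formed, and the epidermis outside it is changing its programme: it shapes denticles and apical extracellular matrix with zona pellucida (ZP) domain proteins, and then secretes chitin and cuticle proteins. The mid-embryonic pulse of the steroid ecdysone and the nuclear receptors that answer it are part of that timetable.

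Values are log2 intensities, levels carry the SD over arrays, and each difference carries the standard error of 1 model fitted to all arrays, with p-values adjusted over 13966 probe sets. Median intensities ran from 829 to 847 over the slit.robo arrays and from 829 to 846 over the slit arrays. Slit replicate 4 and slit.robo replicate 5 had a narrower spread of log2 values than the rest of their groups, by more than 0.05 from the group median, and without the arrays of the series that stood apart in this way 3066 probe sets passed in place of 2403. The actin control probe sets fell off more from the 3' to the 5' end in slit.robo (log2 difference 0.969 ± 0.077, SD, n = 5) than in slit (0.742 ± 0.047, n = 4), with no overlap, and the robo arrays lay higher still at 1.24 ± 0.12 (n = 4). The WT arrays spanned 0.34 to 1.06 for actin. For the GAPDH control the compared groups overlapped, at 1.68 to 1.97 in slit.robo and 1.43 to 1.70 in slit. The actin measure of RNA quality or labelling thus differs between the compared groups, and its part in the results below was not tested.

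The genes the groups are named for did not separate them. The level of sli, the Slit ligand, was 9.73, 9.58, 9.46, 9.43 and 9.50 in slit.robo and 9.22, 9.30, 9.45 and 9.70 in slit, and the ranges overlapped (difference 0.12 ± 0.10, 95% interval -0.08 to 0.33, adjusted p = 0.463). That of robo1, the main Robo receptor, was 11.41, 11.45, 11.24, 11.25 and 11.29 against 11.31, 11.29, 11.36 and 11.42, again overlapping (difference -0.02 ± 0.07, 95% interval -0.16 to 0.12, adjusted p = 0.906). Against WT (9.68 ± 0.33, n = 5), sli was -0.26 ± 0.10 in slit (adjusted p = 0.0326) and -0.14 ± 0.10 in slit.robo (adjusted p = 0.207). Without the alleles, a transcript level does not check these labels, since a mutant gene can still be transcribed.

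Between slit.robo and slit, 2403 of 13966 probe sets (17.2%) passed an adjusted p of 0.05, 1412 higher in slit.robo and 991 lower. Counted by gene, 1153 of 10843 were higher (10.6%) and 753 lower (6.94%), and most changes were small, with a median absolute size of 0.29 among the called genes. These shares are the background for every count of a list or family below. At least 2-fold, 61 genes (0.563%) were higher and 25 (0.231%) were lower. For scale, 57.6% of genes passed in slit.robo against WT, 40.5% in slit against WT and 28.7% in slit.robo against robo, comparisons that share arrays with the one described. The plot of change against mean level shows the called genes over the whole range of levels.

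**Figure D1:**
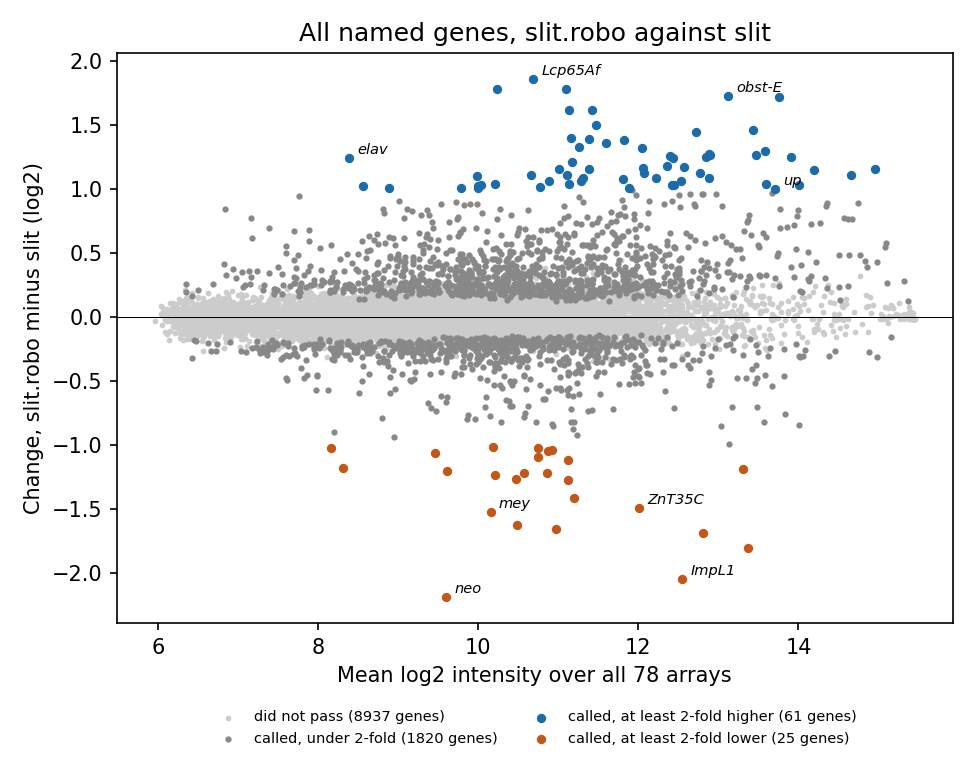
Change between slit.robo and slit (log2, vertical axis) of each of 10843 genes against its mean log2 intensity over all 78 arrays (horizontal axis). Grey points did not pass or passed at under 2-fold, blue points are the 61 genes called at least 2-fold higher in slit.robo and orange points the 25 called at least 2-fold lower, from Lcp65Af at 1.86 to neo at -2.19.

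The gene that fell most was neo, which encodes a ZP domain protein. Proteins of this family are apical matrix components that shape denticles and wing hairs. The neo (neyo) transcript stood at 9.00, 8.91, 9.03, 9.06 and 8.90 in slit.robo and at 11.24, 11.43, 11.38 and 10.62 in slit. All slit.robo arrays were below all slit arrays, with slit replicate 4 the lowest of its group, and the fall of 2.19 ± 0.10 was 4.55-fold (adjusted p = 5.7e-29). For mey (morpheyus) the levels were 9.58, 9.38, 9.33, 9.78 and 9.61 against 10.99, 11.08, 11.22 and 10.94, without overlap, a fall of 1.52 ± 0.09 (adjusted p = 1.0e-22), and its other probe set fell by 2.10. For dy (dusky), a dim gene, they were 7.80, 7.73, 7.95, 7.96 and 7.80 against 9.14, 9.01, 9.15 and 8.79, with slit above slit.robo throughout, a fall of 1.17 ± 0.08 (adjusted p = 5.4e-20). Its relative dyl (dusky-like) was bright and fell by 0.82 ± 0.07 (adjusted p = 4.6e-16). Of the 10 ZP domain genes measured, 4 fell and 3 rose, with a median of -0.07, against a median of -0.01 over all genes. The 3 that rose were zye (1.04 ± 0.08), pio (piopio, 0.53 ± 0.08) and pot (papillote, 0.22), while cyr, nompA and qsm changed by no more than 0.08 and did not pass. The family's members therefore moved apart by up to 3.23 on the log2 scale.

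The plot of lower genes sets proteases and genes without a name beside the ZP domain genes. Trypsin-like proteases of the epidermis were measured as 5 genes, of which 3 fell and none rose. The level of flz (filzig) was 10.47, 10.81, 10.75, 10.77 and 10.40 in slit.robo against 11.86, 12.03, 12.09 and 11.69 in slit, that of mas (masquerade, a catalytically inactive protease relative needed for muscle attachment) 9.64, 9.80, 9.62, 9.76 and 9.65 against 10.95, 10.99, 10.90 and 10.84, and neither gene's groups overlapped. The falls were 1.28 ± 0.12 for flz (adjusted p = 3.2e-14), 1.23 ± 0.08 for mas (adjusted p = 5.4e-20) and 0.61 ± 0.07 for Np (Notopleural, adjusted p = 8.7e-12, with another probe set at -0.42), while Sb and tpr gave -0.05 and 0.01 and did not pass. Genes with no further name were among the steepest falls. CG9184 read 12.50, 12.55, 12.57, 12.63 and 12.42 against 14.31, 14.36, 14.46 and 14.21, and CG7173 read 12.19, 12.26, 12.23, 12.18 and 12.11 against 13.92, 14.02, 13.98 and 13.59. Slit was higher on every array for both, with falls of 1.80 ± 0.08 and 1.68 ± 0.08 (adjusted p = 1.7e-28 and 1.7e-28), although a dimmer probe set of CG7173 fell by 0.52. CG8420 fell by 1.62 ± 0.09, CG14960 by 1.41 ± 0.09 and CG6026 by 1.27 ± 0.08. The others of the 15 lowest were rt (rotated abdomen, a protein O-mannosyltransferase) with a fall of 1.22 ± 0.08, dsx-c73A with 1.21 ± 0.08, wus with 1.20 ± 0.09, and ZnT35C and CG14110, which are taken up below.

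**Figure D2:**
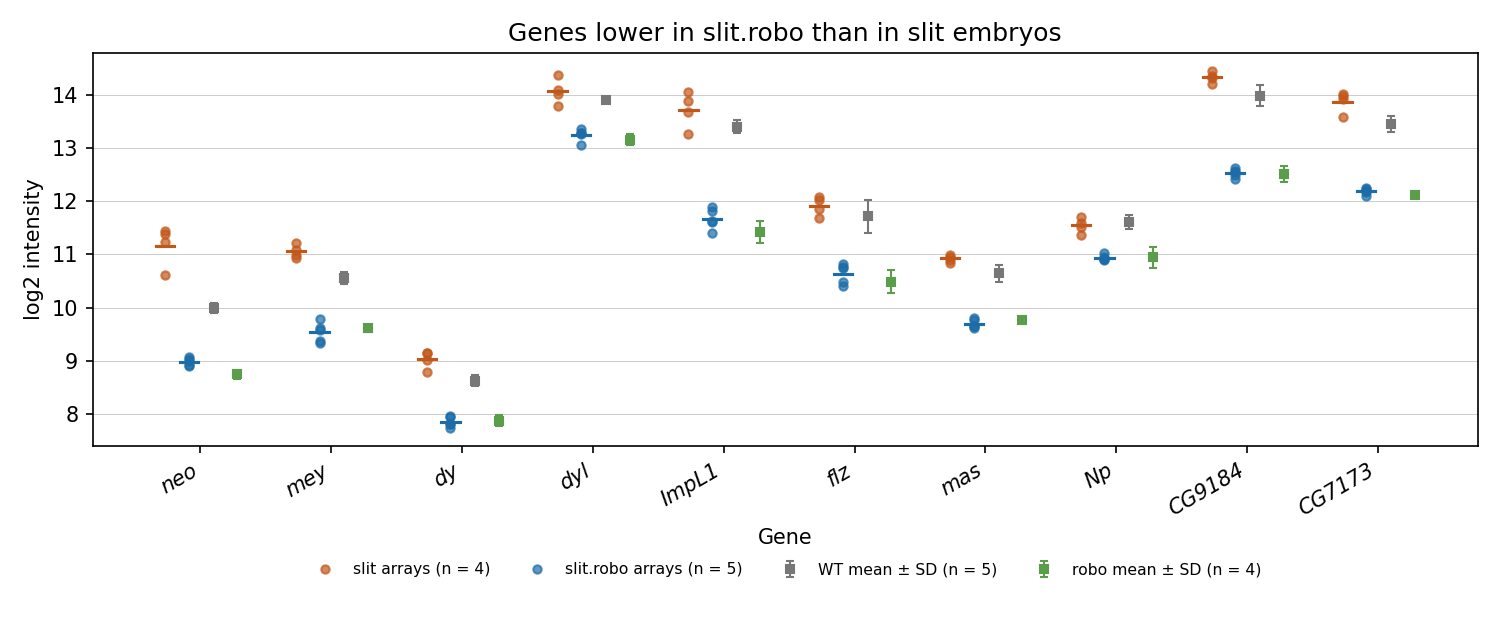
Log2 intensity (vertical axis) of 10 genes that were lower in slit.robo than in slit. Orange and blue points are single slit and slit.robo arrays with a bar at the mean, and grey and green squares are the WT and robo means with SD. For each gene the slit.robo points lie below the slit points, and for neo they lie between 8.90 and 9.06 against 10.62 to 11.43.

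The Osiris genes, an insect family of proteins of the cuticle-secreting epidermis and trachea, included falls as well. Of 24 measured, 10 fell (41.7%) and 1 rose (4.17%), with a median of -0.14. The largest falls were in Osi5 (0.71 ± 0.08), Osi17 (0.69 ± 0.06), Osi24 (0.64 ± 0.08) and Osi16 (0.48 ± 0.07). Osi17 was the tightest of them, at 10.29, 10.29, 10.19, 10.17 and 10.37 in slit.robo against 10.87, 10.99, 10.97 and 10.99 in slit, with no overlap (adjusted p = 8.5e-17). Osi2 alone among the 24 passed in the other direction, at 13.58, 13.60, 13.52, 13.54 and 13.28 against 12.42, 12.48, 12.55 and 12.42, without overlap, a rise of 1.03 ± 0.07 (adjusted p = 1.8e-20). The remaining 13 lay between -0.16 and 0.03.

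Ecdysone-linked genes passed in both directions. ImpL1, found as an ecdysone-inducible gene of imaginal discs, was at 11.62, 11.90, 11.82, 11.63 and 11.40 in slit.robo and 13.68, 13.88, 14.05 and 13.27 in slit. The highest slit.robo array was 1.37 below the lowest slit array, and the fall was 2.05 ± 0.12 (4.13-fold, adjusted p = 8.3e-23). From the same screen, ImpE2 read 13.76, 13.80, 13.77, 13.76 and 13.46 against 14.47, 14.64, 14.69 and 14.39 and ImpE1 read 10.71, 10.75, 10.75, 10.81 and 10.61 against 11.43, 11.64, 11.59 and 11.52. Both were lower on every slit.robo array, with falls of 0.84 ± 0.08 (adjusted p = 5.7e-15) and 0.82 ± 0.09 (adjusted p = 4.4e-11). Another probe set of ImpE1 fell by 0.27. The other Imp genes measured did not pass, with ImpE3 at -0.02 (adjusted p = 0.936) and ImpL2 at -0.08 (adjusted p = 0.488).

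Among the nuclear receptors that ecdysone induces, Hr3 was 8.75, 8.54, 8.64, 8.56 and 8.45 in slit.robo against 9.42, 9.67, 9.34 and 9.06 in slit, and Hr4 was 10.19, 10.16, 10.45, 10.43 and 10.16 against 10.85, 10.70, 11.05 and 10.72. Neither gene's groups overlapped, and the falls were 0.79 ± 0.08 for Hr3 (adjusted p = 5.4e-12) and 0.55 ± 0.12 for Hr4 (adjusted p = 1.7e-04), although each has another, dimmer probe set, and these gave -0.05 and 0.02 and did not pass. The receptor ftz-f1, which follows the pulse, was 12.64, 12.71, 12.74, 12.35 and 12.25 against 12.30, 12.10, 12.22 and 11.71. Those groups overlapped, and the rise was 0.46 ± 0.14 (adjusted p = 0.0172). Its call was lost after quantile normalization (0.37, adjusted p = 0.0565). The call was lost too without slit replicate 4 (0.33, adjusted p = 0.142), without slit.robo replicate 2 (0.41, adjusted p = 0.054) and without slit.robo replicate 3 (0.41, adjusted p = 0.0594). Hr39 rose by 0.31 ± 0.08 (adjusted p = 0.00159) and Eip78C by 0.25. Cyp18a1, the cytochrome P450 that inactivates ecdysone and no member of the list counted next, was 12.15, 12.36, 12.51, 12.34 and 12.09 against 11.53, 11.39, 11.55 and 11.47, higher on every slit.robo array, a rise of 0.80 ± 0.13 (adjusted p = 5.5e-07). Of the 23 measured genes of ecdysone synthesis and response, 7 fell, 3 rose and 13 did not pass, with a median of -0.07. The receptor subunits EcR (-0.05) and usp (0.06) and the synthesis genes spo, dib, sad and shd, which lay between -0.12 and 0.03, were among those that did not pass.

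**Figure D3:**
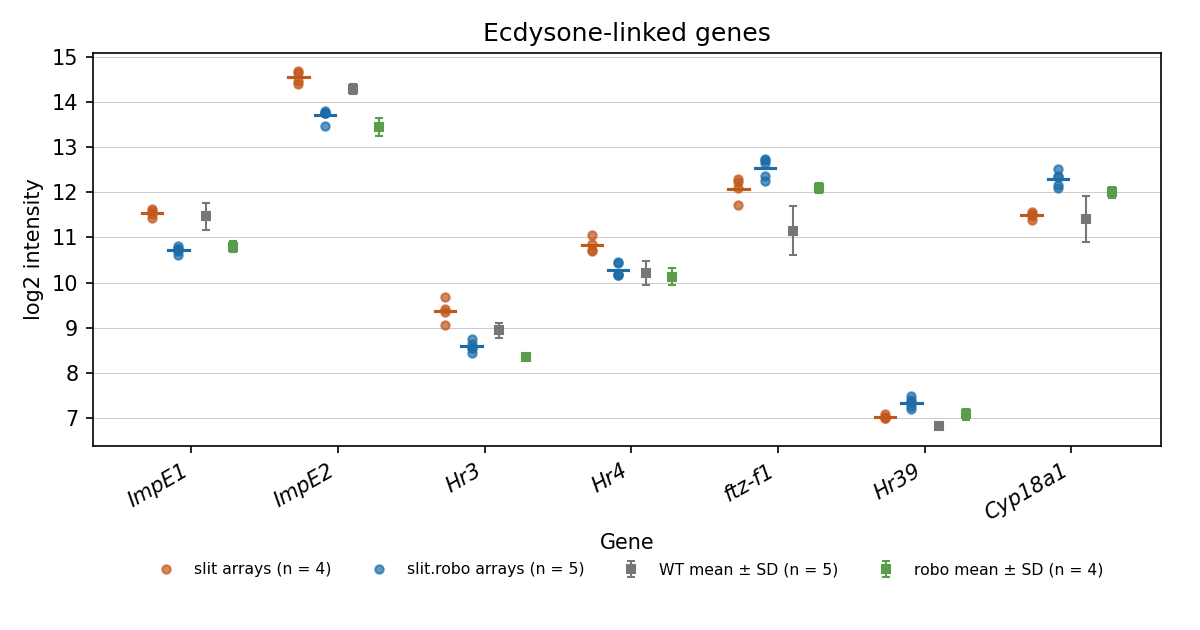
Log2 intensity (vertical axis) of 7 ecdysone-linked genes, drawn with points for single slit (orange) and slit.robo (blue) arrays, a bar at each mean, and squares with SD for WT (grey) and robo (green). ImpE1, ImpE2, Hr3 and Hr4 sit lower in slit.robo than in slit, while ftz-f1, Hr39 and Cyp18a1 have higher means there, with overlapping arrays for ftz-f1.

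Most of the listed cuticle protein genes rose. Of the 25 measured on the list of cuticle proteins, 17 rose, none fell and 8 did not pass, with a median of 0.41. Over the whole CPR family, chitin-binding proteins with the Rebers-Riddiford motif, 34 of 71 rose and 3 fell, and 10 rose at least 2-fold, against 10.6% higher and 0.563% at least 2-fold higher over all genes. Lcp65Af, a larval cuticle protein gene, was 11.65, 11.64, 11.92, 11.55 and 11.44 in slit.robo and 9.82, 9.73, 9.77 and 9.80 in slit. The slit arrays lay within 0.09 of each other and all slit.robo arrays were above them, a rise of 1.86 ± 0.10 (3.63-fold, adjusted p = 2.5e-25). Cpr67Fa2 was 11.94, 12.04, 12.05, 11.68 and 11.30 against 10.00, 9.93, 10.23 and 9.90, with slit.robo replicate 5 the lowest of its group and still above every slit array (1.79 ± 0.18, adjusted p = 2.4e-13). Cpr47Eg, among the brightest, was 14.13, 14.10, 14.18, 14.24 and 14.07 against 12.37, 12.40, 12.33 and 12.59 and rose by 1.72 ± 0.14 (adjusted p = 2.4e-17). The groups did not overlap for Cpr65Ec either, at 12.39, 12.38, 12.47, 12.61 and 12.32 against 10.94, 11.00, 10.96 and 11.41, where slit replicate 4 stood 0.41 above the other slit arrays (rise of 1.36 ± 0.08, adjusted p = 2.1e-23). Other rises of at least 2-fold in the family were in Lcp65Ac (1.32 ± 0.08), Cpr62Bc (1.26 ± 0.12), Cpr92F (1.16 ± 0.08), Cpr78Cc (1.16 ± 0.09), Cpr64Ab (1.15 ± 0.12) and Cpr50Cb (1.07 ± 0.07). The 3 that fell were Cpr72Eb (-0.26), Cpr76Bc (-0.20) and Cpr49Ac (-0.18). In RNA from whole embryos, more cells making a transcript and more transcript per cell cannot be told apart, here and in every group below.

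The Tweedle genes, another family of insect cuticle proteins, rose in 13 of 21 cases with no falls and a median of 0.32. TwdlW was 14.09, 13.95, 14.00, 14.15 and 13.83 in slit.robo against 12.60, 12.66, 12.81 and 12.74 in slit, and Twdlbeta was 14.19, 14.16, 14.36, 14.29 and 14.12 against 13.01, 12.97, 12.90 and 12.94. Every slit.robo array was above every slit array for both, with rises of 1.30 ± 0.12 (adjusted p = 7.4e-14) and 1.27 ± 0.12 (adjusted p = 2.3e-13). TwdlV rose by 1.06 ± 0.10, TwdlC by 1.04 ± 0.08, Tb (Tubby, which shapes the larval body) by 0.96 ± 0.10 and TwdlQ by 0.87 ± 0.09. The 8 that did not pass ran from -0.09 for TwdlS to 0.32 for TwdlD. Among them TwdlF, at a mean of 15.44 in both groups, was near the highest value on any array (15.46), where a rise could hardly be seen. Vajk1 and Vajk3, further cuticle proteins, rose by 0.85 ± 0.09 and 0.95 ± 0.09. The plot by family sets these rises beside the falls of the Osiris and protease genes.

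**Figure D4:**
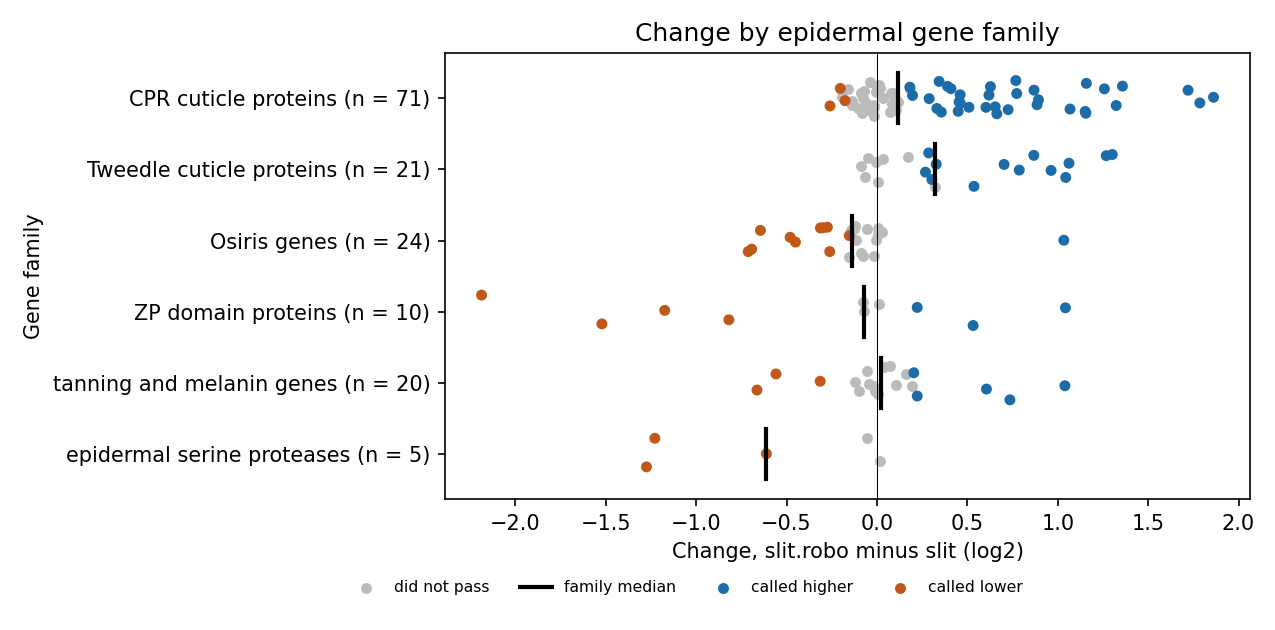
Change between slit.robo and slit (log2, horizontal axis) for every measured member of 6 gene families of the epidermis (rows). Blue points were called higher, orange points lower and grey points did not pass, and the black line is the family median. The medians run from 0.32 for the Tweedle genes and 0.12 for the CPR genes to -0.14 for the Osiris genes and -0.61 for the 5 proteases.

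Genes that make, bind and crosslink the cuticle's chitin and proteins moved in both directions. The chitin-binding obst-E (Obstructor-E), which sets the body shape of larva and pupa, was 13.74, 13.73, 13.79, 13.78 and 13.51 in slit.robo against 11.85, 11.86, 11.78 and 12.45 in slit, without overlap although slit replicate 4 stood 0.59 above the others of its group. It rose by 1.73 ± 0.11 (adjusted p = 5.5e-22) and by 1.03 in its other probe set. The chitin synthase gene kkv fell by 0.44 ± 0.07 (adjusted p = 4.0e-06), knk, which organises the fibres, fell by 0.40 ± 0.07 (adjusted p = 1.9e-05), and of the chitinases Cht6 rose by 0.66 and Cht10 fell by 0.49. On the list of chitin and epidermal differentiation 7 of 29 measured rose (24.1%) and 12 fell (41.4%), with a median of -0.08.

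Tanning genes divided as well, with 5 of 20 higher and 3 lower. Ddc, dopa decarboxylase, which supplies the catecholamines that harden cuticle and is also used by aminergic neurons, was 10.85, 10.81, 11.03, 10.74 and 10.70 against 9.62, 9.78, 9.60 and 10.14, higher on every slit.robo array (1.04 ± 0.09, adjusted p = 2.0e-16). The N-acetyltransferase gene speck rose by 0.74 ± 0.08 and y (yellow) by 0.61 ± 0.06. The 3 that fell were ple, tyrosine hydroxylase upstream of Ddc, by 0.31 ± 0.06 (adjusted p = 7.8e-05), stw, a laccase, by 0.56 ± 0.09 (adjusted p = 3.0e-06), and yellow-d by 0.66 ± 0.08. The barrier genes snu, an ABC transporter, and snsl, its extracellular partner, rose by 0.65 ± 0.12 and 0.65 ± 0.07.

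**Figure D5:**
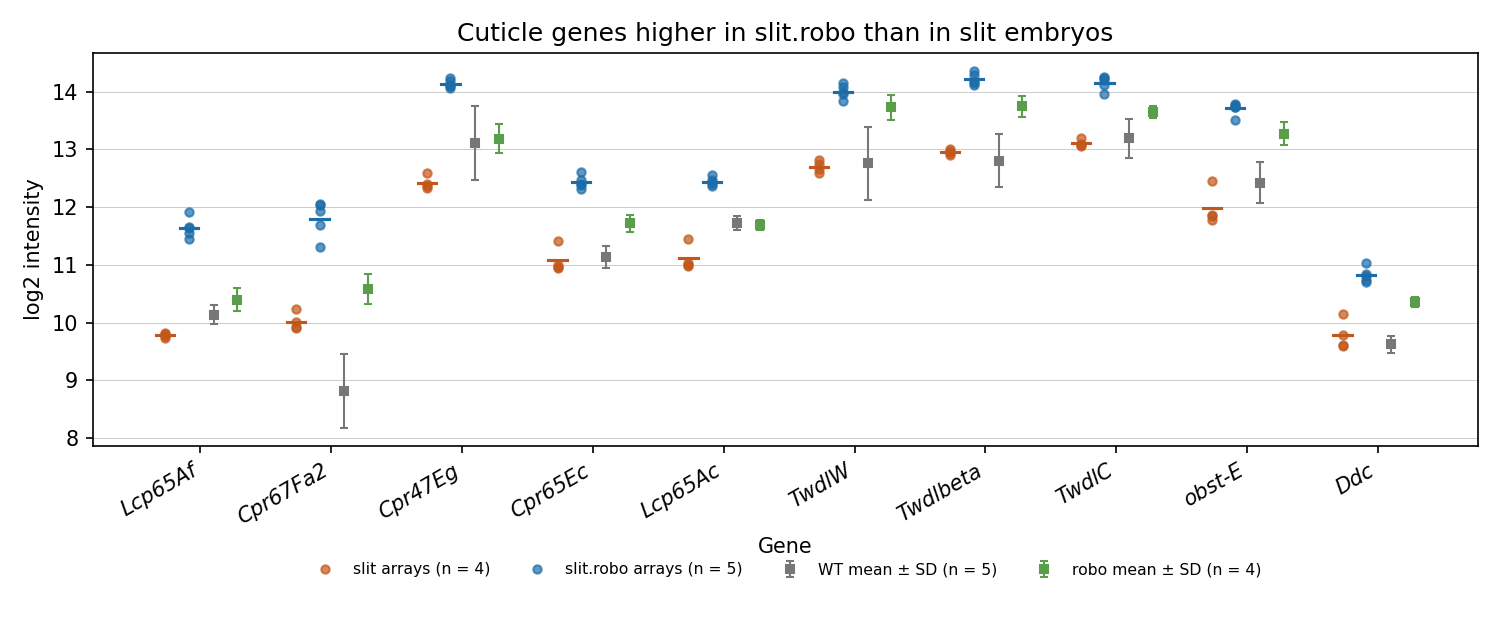
Log2 intensity (vertical axis) of 10 cuticle genes that were higher in slit.robo than in slit. Orange and blue points are single slit and slit.robo arrays with a bar at the mean, and squares with SD are the WT (grey) and robo (green) groups. For each gene the slit.robo points lie above the slit points, and for Lcp65Af they lie between 11.44 and 11.92 against 9.73 to 9.82.

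The WT and robo arrays place these changes, with the reminder that each side-by-side value shares arrays with the main comparison. Both sets of 15 were picked for their change between slit.robo and slit. For the falls this favours a high slit level and a low slit.robo level, and for the rises the reverse. Over all genes, 40.5% passed in slit against WT and 28.7% in slit.robo against robo, in either direction. The share for slit against robo was not counted. Among the 15 steepest falls, slit.robo differed from robo by -0.61 to 0.26, with a median of 0.10, and 13 of the 15 differences did not pass. The slit level was above robo for all 15, by 0.81 to 2.42, and higher than WT for 10 of them, with a median difference from WT of 0.32 over the 15. For neo the means were 9.99 ± 0.10 in WT (n = 5) and 8.74 ± 0.08 in robo (n = 4). Slit was thus 1.18 ± 0.10 above WT (adjusted p = 5.3e-16) and slit.robo 1.01 ± 0.09 below it (adjusted p = 7.5e-15), while slit.robo and robo differed by 0.24 ± 0.10 (95% interval 0.04 to 0.43, adjusted p = 0.061). ImpL1 was 13.41 ± 0.12 in WT and 11.42 ± 0.21 in robo, and slit.robo differed from robo by 0.26 ± 0.12 (95% interval 0.01 to 0.50, adjusted p = 0.106). CG9184 was 13.99 ± 0.20 in WT and 12.51 ± 0.15 in robo, with a difference between slit.robo and robo of 0.02 ± 0.08 (95% interval -0.15 to 0.19, adjusted p = 0.862). For Osi17 the same difference was -0.02 ± 0.06 (95% interval -0.14 to 0.09), with WT at 10.97 ± 0.09, on the slit side. Against WT, slit.robo was lower for 14 of the 15, and the one that did not pass was ZnT35C, a zinc transporter gene. It stood at 11.20, 11.27, 11.34, 11.37 and 11.22 in slit.robo and 12.86, 12.86, 12.98 and 12.40 in slit, with WT at 11.14 ± 0.10 and robo at 11.89 ± 0.18. Slit was the highest of these groups for it, 1.63 ± 0.09 above WT (adjusted p = 9.3e-26), while slit.robo was 0.14 ± 0.08 from WT (adjusted p = 0.117).

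Among the 15 steepest rises, slit.robo was above robo as well, by 0.21 to 1.33 with a median of 0.80, and 14 of the 15 passed. Slit itself was lower than WT for 7 of the 15, higher for 6, and did not pass for 2. Lcp65Af was 10.13 ± 0.17 in WT and 10.40 ± 0.20 in robo, so that slit.robo was 1.51 ± 0.09 above WT and 1.25 ± 0.10 above robo (adjusted p = 1.9e-22 and 5.2e-16). Cpr67Fa2 was 8.81 ± 0.64 in WT, 10.58 ± 0.26 in robo and 10.02 ± 0.15 in slit, with slit.robo above all 3. CG15615, which did not pass against robo, differed from it by 0.21 ± 0.11 (95% interval -0.01 to 0.43, adjusted p = 0.142). TwdlQ, outside the 15, likewise stood at the robo level (-0.01 ± 0.09, 95% interval -0.19 to 0.18) and well above WT (1.24 ± 0.09).

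Guidance genes of the nerve cord passed in both directions. Of 22 measured in the Slit and Robo pathway, 4 rose (18.2%) and 2 fell (9.09%), with a median of -0.02, against 10.6% higher and 6.94% lower over all genes. The largest rise was in ena, the actin regulator Enabled, at 10.28, 10.08, 10.24, 10.20 and 9.81 in slit.robo against 9.29, 9.50, 9.21 and 9.14 in slit, with no overlap (0.84 ± 0.12, adjusted p = 6.5e-08). Slit lay 0.26 ± 0.12 from WT (adjusted p = 0.0827) and slit.robo 0.84 ± 0.12 above robo (adjusted p = 2.0e-07). Abl rose by 0.25 ± 0.06, Nrg (Neuroglian, an L1-type adhesion protein) by 0.46 ± 0.12 and Nedd4, a ubiquitin ligase, by 0.20, while cib (ciboulot, an actin-binding protein) fell by 0.46 ± 0.09 and the receptor phosphatase gene Ptp10D by 0.24. For comm, the Robo regulator, the difference was -0.12 ± 0.05 (95% interval -0.22 to -0.02, adjusted p = 0.0776) and did not pass. It passed without slit replicate 1 (-0.15, adjusted p = 0.0494) and without slit replicate 4 (-0.15, adjusted p = 0.0455). It also passed after quantile normalization (adjusted p = 0.0156), with array weights (adjusted p = 0.0161) and with the array's SD as a covariate (adjusted p = 0.0253). Sdc (Syndecan, a coreceptor for Slit) gave -0.04 ± 0.06 (95% interval -0.17 to 0.09, adjusted p = 0.751), and NetB, a Netrin, gave -0.01 ± 0.10 (95% interval -0.21 to 0.20, adjusted p = 0.982). Sdc and NetB were nonetheless above WT in both groups, by 1.43 ± 0.10 in slit.robo and 1.44 ± 0.10 in slit for NetB. Of 25 other guidance ligands and receptors, 3 rose (Sema1a, Drl-2 and tutl, by 0.23 to 0.35) and 1 fell (dnt, -0.29 ± 0.07), with a median of -0.05. The further probe sets of Drl-2 gave -0.04 and -0.03 and those of tutl -0.02 and -0.04, and none of them passed. The call of Sema1a was lost without slit replicate 2 (0.29, adjusted p = 0.0802) and without slit.robo replicate 2 (0.27, adjusted p = 0.0943), and that of tutl without slit replicate 2 (0.22, adjusted p = 0.0569) and without slit replicate 3 (0.21, adjusted p = 0.0642).

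Among 22 neural adhesion genes 3 rose and 3 fell. Ama (Amalgam), a secreted immunoglobulin protein, was 10.43, 10.56, 10.47, 10.39 and 10.40 against 11.16, 11.32, 11.29 and 11.03, and Nrt (Neurotactin), the membrane protein it binds, was 13.44, 13.43, 13.38, 13.40 and 13.22 against 13.80, 13.91, 13.87 and 13.52. Both were lower on every slit.robo array, by 0.75 ± 0.07 (adjusted p = 1.3e-14) and 0.40 ± 0.07 (adjusted p = 1.1e-05), while a dim probe set of Nrt gave -0.16 and did not pass. Nrx-1 (Neurexin), at 11.18, 11.19, 11.26, 11.34 and 11.12 against 10.71, 10.73, 10.69 and 10.70, rose by 0.51 ± 0.11 (adjusted p = 2.5e-04).

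Of 24 genes of differentiated neurons, 8 rose (33.3%) and 2 fell (8.33%), with a median of 0.08, against 10.6% and 6.94% over all genes. The rises include Ddc (1.04) and the falls include ple (-0.31), which were both counted above among the tanning genes. The RNA-binding protein gene elav, expressed in all neurons, was 9.48, 9.38, 9.44, 9.25 and 8.99 against 8.06, 8.08, 8.09 and 8.03. The slit arrays lay within 0.07 of each other, all below slit.robo, and the rise was 1.24 ± 0.20 (adjusted p = 6.1e-07), with robo at 7.76 ± 0.08 and WT scattered at 7.84 ± 0.88. Cbp53E, a calcium-binding protein of neurons, was 10.06, 9.99, 10.32, 9.84 and 9.81 against 9.10, 9.29, 9.15 and 9.28, higher throughout slit.robo (0.80 ± 0.09, adjusted p = 1.3e-10). Rdl, a GABA receptor, rose by 0.53, Vmat, the vesicular monoamine transporter, by 0.52 ± 0.09 and Ace, acetylcholinesterase, by 0.44. A dimmer probe set of Vmat gave -0.02. Other broadly neuronal genes were mixed: para, the sodium channel gene, rose by 0.26 (adjusted p = 0.00514) and Rab3, of synaptic vesicles, by 0.22 (adjusted p = 0.0337), while brp at 0.02, nSyb at 0.02 and futsch at 0.09 did not pass, nor did ChAT, which marks cholinergic neurons, at 0.15. The trehalose transporter gene Tret1-1 fell by 0.57 ± 0.08, but its dimmer probe set gave 0.13 and did not pass. Midline markers gave 3 rises and 1 fall of 16, with wrapper, a midline glia gene, at -0.12 and not passing. Neural precursor genes gave 2 rises and 1 fall of 22, and of 16 glial genes 1 rose, Mdr65, a transporter of the blood-brain barrier (0.57 ± 0.08, adjusted p = 4.4e-08), while the glial factor repo was at 0.06 and did not pass.

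Muscle, heart and matrix genes passed in both directions. Of 22 muscle genes 5 rose (22.7%, against 10.6% over all genes) and 1 fell (lmd, -0.24), with a median of 0.13, and 8 rose with array weights and also without the arrays that stand apart. The troponin T gene up was 14.11, 14.17, 14.12, 14.24 and 13.90 against 13.12, 12.91, 13.46 and 12.93, higher on every slit.robo array (1.0 ± 0.12, adjusted p = 8.2e-11), but its other probe set gave -0.01 (adjusted p = 0.952). Obsc (obscurin) rose by 0.63 ± 0.05 in its brightest probe set and did not pass in its other 3, and sls (the titin gene Sallimus) rose by 0.40 ± 0.09, with further probe sets at 0.38, which passed, and at 0.31 and 0.08, which did not. For bt (projectin) the brighter probe set gave 0.45 ± 0.18 (adjusted p = 0.0864) and a dimmer one 2.37 (adjusted p = 2.9e-22), and it passed when only the compared groups were fitted (adjusted p = 0.00415), so no single value stands for that gene. The myosin light chain gene Mlc2 and the actin gene Act87E changed by -0.01 and 0.04 and did not pass. Their mean levels, 15.44 and 15.42 in slit.robo, were near the highest value on any array (15.46), so a rise could hardly be seen. Of 19 heart genes 2 rose and 1 fell (Ance, -0.33): prc (Pericardin, a collagen-like protein of the heart) was 12.42, 12.45, 12.37, 12.35 and 12.09 against 11.71, 11.67, 11.78 and 11.66, without overlap (0.63 ± 0.07, adjusted p = 2.1e-12). Of 25 hemocyte and basement membrane genes 8 rose (32.0%) and 1 fell (PPO1, -0.21), with a median of 0.08. Mp (Multiplexin, the collagen XV/XVIII relative) was 10.21, 10.23, 10.69, 10.38 and 10.14 against 9.54, 9.51, 9.81 and 9.33, with no overlap (0.78 ± 0.10, adjusted p = 5.8e-09), and its other probe sets gave 0.31, which passed, and 0.07, which did not. The perlecan gene trol rose by 0.52 ± 0.08, with a second probe set at 0.04, Col4a1 by 0.23 and SPARC by 0.24. Without slit replicate 1, slit.robo replicate 2 or slit.robo replicate 3, each left out alone, 5 genes of that list rose.

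Genes of tubular and secretory tissues were counted next. Of 14 tracheal genes 2 rose (14.3%) and 3 fell (21.4%), against 10.6% and 6.94% over all genes. The lists share members, and these counts include pio, which rose, and kkv and knk, which fell, all described above with the epidermal genes. The falls included sinu (Sinuous, a claudin of septate junctions), at 11.18, 11.00, 11.01, 11.13 and 11.05 against 11.60, 11.61, 11.63 and 11.51 with no overlap (-0.51 ± 0.07, adjusted p = 3.6e-08). Of 9 salivary gland genes 3 fell, by 0.30 to 0.34, and none rose, with the gland factor fkh at -0.01 and not passing. Of 9 heat shock and chaperone genes 2 fell, led by Hsc70-3, the BiP chaperone of the endoplasmic reticulum (-0.47 ± 0.06, adjusted p = 1.6e-08), while a dim probe set of that gene gave 0.00. Of 35 midgut genes 4 rose (11.4%) and 2 fell (5.71%), near the shares over all genes. Among them 1 stood out: Jon65Aiii, a digestive serine protease, at 12.98, 12.99, 12.92, 12.91 and 12.78 against 11.65, 11.67, 11.45 and 11.83. Its groups lay 0.95 apart at their nearest arrays (1.26 ± 0.06, adjusted p = 9.6e-27), with WT at 12.61 ± 0.08 and robo at 13.18 ± 0.13, so that slit was the low group, -0.96 ± 0.06 from WT.

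Of 26 genes of fat body, sugar and lipid metabolism 7 rose (26.9%) and 2 fell (7.69%), against 10.6% and 6.94% over all genes. Among them were FASN1 (fatty acid synthase, 0.47 ± 0.08) and Pepck1 (gluconeogenesis, 0.43 ± 0.08) upward and the storage protein gene Lsp2 (-0.32) downward. Metal handling and detoxification genes, counted as 1 list, gave 7 rises (25.9%) and 4 falls (14.8%) of 27. The rises were led by the cytochrome P450 genes Cyp6a8 (0.63 ± 0.06) and Cyp9b2 (0.60 ± 0.06, with another probe set at -0.12 that did not pass). The falls were the metal handling genes ZnT35C (-1.49), MtnA (-0.31) and MtnC (-0.23) and the P450 gene Cyp6a13 (-0.28). Of all 83 measured P450 genes 18 rose (21.7%) and 10 fell (12.05%). Among 14 immune genes Drsl5, a drosomycin-like peptide gene, was 12.31, 12.56, 12.45, 12.55 and 12.36 against 11.62, 11.77, 11.72 and 11.45, without overlap (0.81 ± 0.11, adjusted p = 3.3e-09), and Dif rose by 0.48 ± 0.09, 1 gene fell and 11 did not pass. Lysosome and autophagy genes gave 5 rises and 1 fall of 20, and eye pigment and body colour genes 7 rises and 2 falls of 20, Ddc and y among them.

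Of 18 mitotic genes 3 fell (16.7%, against 6.94% over all genes), CycB3 (-0.46 ± 0.10), CycE (-0.33 ± 0.11) and CycB (-0.22 ± 0.06), and 1 rose. The call of CycE was lost after quantile normalization (-0.32, adjusted p = 0.066). It was lost too without slit replicate 1 (-0.27, adjusted p = 0.15), slit replicate 3, or slit.robo replicate 2, 4 or 5 (-0.29 to -0.32 across those 4). Of 21 replication genes 1 rose, of 34 maternal and germline genes 1 rose and 2 fell, and of 27 early patterning genes 1 rose and 2 fell, shares near or below the background given above. Of 37 cytosolic ribosomal protein genes 1 passed, and their median was -0.01, at levels near the top of the scale, where the highest value on any array was 15.46.

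The 15 steepest rises also held genes of little known function. Their groups did not overlap for any of the 15, which the choice of the largest called changes favours, and the share over all genes was not counted. CG18649 was 12.14, 12.31, 12.28, 12.08 and 11.80 against 10.12, 10.48, 10.44 and 10.32, higher throughout slit.robo (1.78 ± 0.12, adjusted p = 1.0e-20). CG14327, EAChm, CG34166, CG13043, Try29F (a trypsin), frm, CG15615, CG13738 and CG15023 rose by 1.33 to 1.62, and with CG18649 and the 5 cuticle genes Lcp65Af, Cpr67Fa2, obst-E, Cpr47Eg and Cpr65Ec they complete the 15. By position, 9 of the 15 steepest rises and 8 of the 15 steepest falls lay on chromosome arm 3L. Of the 2106 genes measured on 3L, 1.66% changed at least 2-fold, against 0.455% on 2L, 0.873% on 2R, 0.625% on 3R and 0.34% on X. The share called at any size was 19.4% on 3L and 15.2% to 19.2% on the other large arms.

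Some of these genes are neighbours. Of the 86 genes called at least 2-fold, 61 were higher and 25 lower. Among the 86, 15 lay in 8 pairs with no more than 3 genes between them, with CG30458 shared between pairs. Both members moved the same way in all 8. As most of the 86 rose, many pairs would share a direction anyway, and how many pairs random placement gives was not tested. ImpL1 and CG14110 are adjacent on 3L, and CG14110 was 10.37, 10.32, 10.29, 10.32 and 9.99 against 11.87, 12.10, 12.08 and 11.60, with no overlap (a fall of 1.65 ± 0.08, adjusted p = 5.0e-28). CG18649 and EAChm, both on 3L, are adjacent as well, and EAChm was 12.14, 12.10, 12.22, 12.23 and 11.77 against 10.40, 10.55, 10.52 and 10.41, without overlap (1.62 ± 0.14, adjusted p = 6.6e-16). CG15212 and CG15213, also adjacent on 3L, rose by 1.11 ± 0.10 and 1.09 ± 0.08. On 2R, CG17290, CG30458 and CG10953 lie with 1 gene between each and rose by 1.26 ± 0.13, 1.03 ± 0.07 and 1.16 ± 0.07, and CG13218 and CG13217, with 3 genes between them, rose by 1.21 ± 0.07 and 1.28 ± 0.08. CG11147, with 1 gene between it and obst-E on 2L, rose by 1.08 ± 0.11, and CG12009, with 1 gene between it and CG14960 on 3L, fell by 1.09 ± 0.11. Probe sets of neighbouring genes can share sequence or transcripts, and whether they do here was not tested.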

How the data were processed

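RNA from whole embryos was measured on Affymetrix arrays. The deposited table holds linear intensities, and the submitters' processing notes name RMA, without a version in the sources used here. Per the labels' protocols, RNA came from QIAGEN columns and biotin labelling started from 6 ug of it. The tests had been designed for a table already on the log2 scale, and because the deposited values turned out to be linear, log2 of all 14010 probe sets was taken first and the designed fit was kept. The 44 Affymetrix controls were left out. Of the 13966 tested, 12442 have a single gene name, 327 several and 1197 none. Names were updated through the RefSeq table of Release 6 plus ISO1 MT for 12393 and kept from the platform annotation for 49, covering 10843 genes. Where a gene had more than 1 probe set (1209 genes), the one of highest mean over all arrays was used.

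R 4.3.3 and limma 3.58.1 fitted 18 group means to the 78 arrays, with moderated two-sided tests (eBayes) on 60 residual degrees of freedom, Benjamini-Hochberg adjustment and a threshold of 0.05. The fit was also run on simulated arrays with noise drawn independently for each probe set. Deviations in the real arrays were shared across probe sets, so that run cannot show how many calls here are false. Tables and plots were made in Python 3.11.15 with pandas 2.3.3 and matplotlib 3.10.9. The number of arrays limits the precision. No 2 arrays were identical.

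Genes named are sli and robo1, the 15 highest and 15 lowest called genes, up to 4 called members (by size) of each of 26 lists, or the 2 largest changes where none passed, and called neighbours of at least 2-fold change with no more than 3 genes between them. The comparison and the lists were chosen with earlier results of these data known, and 8 gene families and the remaining names were added after their values were seen, so their counts and medians are descriptions. Replicate numbers do not pair the groups: correlations of the deviations from the group means were -0.01, 0.09, 0.30 and -0.05 for the same numbers. For different numbers they ran from -0.48 to 0.54. The highest was that of slit.robo replicate 5 with slit replicate 4, the arrays with the narrower spread, and its reason was not tested. The alternatives were quantile normalization, no dim probe sets (below the 40th percentile), the compared groups alone, a replicate block, array weights, the array's SD as a covariate, and leaving out arrays that stand apart or single arrays.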

Additional observations from a re-analysis of the deposited data

Results flagged for a closer look

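In 27 of 312 sets of arrays examined, 156 named genes in each of both groups, the highest or lowest array lay far from the rest of its group for the group's range. This is 8.65%, and chance alone flags about 1 in 20 groups. Of the 27, 16 fell on slit.robo replicate 5, 9 on slit replicate 4 and 2 on other arrays, and those replicates are the ones whose log2 values had a narrower spread. Slit.robo replicate 5 was the lowest of its group for obst-E (13.51), EAChm (11.77), CG14110 (9.99), Nrt (13.22), sls (11.59), prc (12.09), kkv (11.84), ImpE2 (13.46), trol (11.27), Atg1 (10.54), gcl (12.73), CG13217 (13.57), CG12009 (9.79), TwdlV (12.95), Osi2 (13.28) and dyl (13.06). Slit replicate 4 was the highest of its group for obst-E (12.45), Cpr65Ec (11.41), zfh1 (10.16), twi (10.58), CG11147 (11.67), CG15213 (12.64), Cpr92F (10.66) and Lcp65Ac (11.45), and the lowest for Hsc70-3 (13.35). For the cuticle genes among these, slit replicate 4 lay between the other slit arrays and the slit.robo arrays. That position is favoured by the listing, as it was the highest slit array for genes that were higher in slit.robo. Slit.robo replicate 3 was the lowest of its group for gsb (9.84), and slit replicate 1 for Osi17 (10.87). The reason these arrays lie apart was not tested.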

How the results depend on the processing

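No named gene that passed changed direction in any of 17 alternatives, and 133 of the 149 named genes that passed kept their call in all of them. Named genes were picked mainly for the size of a called change or added after their values were seen, which favours keeping a call. The 16 that lost it somewhere are Sema1a, tutl, orb2, sc, DnaJ-1, Mtk, Atg1, CtsB, CycE, tum, RPA2, gcl, Cp38, gsb, twi and ftz-f1, and 3 (comm, e and bt) gained it. Of probe sets, 2403 passed, 1412 higher and 991 lower. Leaving out single arrays gave 1935 to 2778, 1161 to 1544 higher and 774 to 1234 lower. Array weights gave 3550 (1920 higher, 1630 lower), the array's SD as a covariate 3184 (1668 and 1516), quantile normalization 2504 (1296 and 1208), the compared groups alone 2096 (1300 and 796), the brighter probe sets alone 1951 of 8380 tested, and leaving out the arrays that stand apart 3066 (1698 and 1368). An alternative chosen after seeing the data, the compared groups without slit replicate 4 and slit.robo replicate 5, gave 3074. Of the probe sets called, 2381 were also called with array weights and 2213 after quantile normalization, each in the same direction. With the compared groups alone 1920 of them were also called, and without slit replicate 1 1898 were, again in the same direction. The muscle list had 8 rises in place of 5 with array weights and also without the arrays that stand apart, and the hemocyte list between 5 and 9 when single arrays were left out. The causes of these moves were not tested. With the replicate number as a block, 2512 probe sets passed (1463 higher, 1049 lower) and of the named genes CtsB lost its call, but the numbers do not pair the arrays. Signals near background compress changes, and 4 and 5 arrays limit what small changes can be called.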
